A study of Mus musculus with 10 samples.

Results

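The estrogen receptors, the orphan receptors related to them, 2 genes widely used as readouts of estrogen receptor activity and the enzyme that makes estrogens were followed in RNA of the ventral hippocampus (vHpc). They comprised 9 of the 24421 genes listed and were taken by gene symbol alone. These were the estrogen receptors Esr1, Esr2 and Gper1, the estrogen-related receptors Esrra, Esrrb and Esrrg, the target genes Pgr and Greb1, and the aromatase gene Cyp19a1. All mice were ovariectomized (OVX) C57BL/6 females, so the vehicle groups lacked ovarian hormones too, and were either wild type (WT) or heterozygous for a BDNF Val66Met knock-in allele (Het-Met). After 2 weeks of recovery they drank either 0.1% ethanol (vehicle) or 300 nM 17β-estradiol (E2) in 0.1% ethanol, about 0.7 µg per day, for 6 weeks. Each library held RNA pooled from 2 animals, so the spread between libraries is a spread between pools. Of the 10 libraries, 4 were from OVX WT mice, replicates 1 and 3 with vehicle and replicates 1 and 2 with E2. The other 6 were from OVX Het-Met mice, replicates 1 to 3 with each treatment. As every mouse was OVX, the groups are named below by genotype and treatment alone. Levels are CPM, the reads of a gene after the reads of the whole library on genes were scaled to 1000000. Between 19820184 and 23267410 reads were counted per library, so 1 read was worth between 0.0430 and 0.0505 CPM and the floor of 3 reads lay between 0.129 and 0.151 CPM.

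Estradiol acts through ligand-activated transcription factors, ERα (encoded by Esr1) and ERβ (encoded by Esr2), which bind estrogen response elements in DNA and recruit coactivators or corepressors. It also acts through the membrane receptor encoded by Gper1, which couples to G proteins. The estrogen-related receptors resemble these factors in sequence but do not bind estradiol, and are known for control of mitochondrial and energy metabolism genes. In the brain, induction of Pgr, the progesterone receptor gene, by estradiol is best known from the hypothalamus.

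The promoter windows of both target genes are shown because Pgr and Greb1 serve as readouts of receptor binding to DNA. That of Esr2 was added for its E2 difference, the largest fitted by limma among the members tested. Esr2 passed the limit on low values, given below, only through its E2 libraries, so no conclusion is drawn from this rank. Each window holds the 250 bases before the annotated start in RefSeq (build GRCm38.p6), written 5′ to 3′ on the strand of the gene. Capitals mark the half-site of the estrogen response element, GGTCA or its complement TGACC. The Pgr window is chr9:8899583-8899832 (plus strand), the Greb1 window chr12:16800887-16801136 (minus strand) and the Esr2 window chr12:76177260-76177509 (minus strand).
Pgr: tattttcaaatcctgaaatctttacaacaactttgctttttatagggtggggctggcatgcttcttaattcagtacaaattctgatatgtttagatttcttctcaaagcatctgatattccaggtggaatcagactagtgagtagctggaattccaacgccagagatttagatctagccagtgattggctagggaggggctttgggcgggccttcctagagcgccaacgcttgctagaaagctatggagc
Greb1: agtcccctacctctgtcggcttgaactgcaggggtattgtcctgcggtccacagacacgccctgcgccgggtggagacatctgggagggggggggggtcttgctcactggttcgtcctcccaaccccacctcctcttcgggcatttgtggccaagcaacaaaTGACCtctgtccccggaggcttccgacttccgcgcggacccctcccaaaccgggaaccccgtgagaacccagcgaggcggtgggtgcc
Esr2: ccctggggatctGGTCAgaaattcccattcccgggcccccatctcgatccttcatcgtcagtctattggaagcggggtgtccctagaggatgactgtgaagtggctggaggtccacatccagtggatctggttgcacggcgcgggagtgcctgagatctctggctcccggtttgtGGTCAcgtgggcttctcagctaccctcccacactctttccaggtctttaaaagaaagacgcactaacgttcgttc
The Greb1 window shown is the first of 2 in RefSeq and held a single TGACC that began 88 bases before the start, and the second, chr12:16757240-16757489, held GGTCA at 194 and at 85 bases before its start. Esr2 had GGTCA at 238 and at 75 bases before the start, and Pgr had no half-site here. RefSeq gave 17 such windows for the 9 members. A half-site on either strand occurred in 6 of these 17 windows (35.3%) and in 35.2% of all 32851 windows. The full element, GGTCA and TGACC separated by 3 bases of any kind, contains the half-site and was in 0 of 17 windows and in 0.0639% of all windows. The estrogen-related receptor element TCAAGGTCA (TGACCTTGA on the other strand), which also contains the half-site, was in 0 of 17 and in 0.387%. These matches describe the letters in the windows alone.

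The libraries held abundant RNA of hippocampal neurons. Camk2a, a kinase of excitatory synapses, averaged 4690 CPM, and the 10 neuronal markers summed to between 6595 and 8234 CPM per library. Markers of other tissues varied between libraries, and fewer cells of a type cannot be told apart from less RNA per cell in such bulk samples. The 14 choroid plexus markers, led by the transthyretin gene Ttr, summed to between 360.3 CPM (vehicle-treated WT replicate 1) and 4124 CPM (vehicle-treated Het-Met replicate 1). With E2, 14 of these 14 genes were higher in WT mice and 11 of 14 were lower in Het-Met mice at an unadjusted p-value under 0.05, against 2.37% and 2.63% of all genes, and 0 passed the adjusted test of limma in either genotype. Between genotypes 14 of 14 were higher in Het-Met mice under vehicle (median log2 difference 1.46) and 14 of 14 lower under E2 (median -1.57) at the unadjusted p-value, against 5.85% and 5.36% of all genes. Their interaction was negative for 14 of 14 (median -2.98), against 2.62%, and 0 were called in these comparisons (limma). The 9 pituitary markers, led by the prolactin gene Prl, summed to 210.3 CPM in replicate 2 of the E2-treated Het-Met mice and to 2.42 CPM in replicate 3 of the same group. Cga, which encodes the common subunit of the glycoprotein hormones, and Fshb were at 0 in at least 1 library, and the pituitary lineage factors Pou1f1 and Tbx19 averaged 0.0236 and 0.0182 CPM. Markers of the hypothalamus, a region rich in estrogen receptors, summed to between 2.73 and 8.02 CPM, with Trh (the thyrotropin-releasing hormone gene) highest at a mean of 1.60 CPM. Of the other 9 markers, the vasopressin gene Avp averaged 0.934 CPM (up to 4.96 CPM in 1 library), Agrp 0.501, the lineage factor Nkx2-1 0.470 and Gnrh1 0.320 CPM, while Oxt, Pmch, Hcrt, Otp and Kiss1 were at 0 in at least 1 library. The 7 markers of the medial amygdala, another such region, summed to between 35.8 and 46.7 CPM, mostly from Lhx6 (mean 25.5 CPM), which cortical interneurons also express. The 7 thalamic markers, led by Calb2, summed to between 149.9 and 219.1 CPM, and the highest sum of both these lists came from replicate 3 of the E2-treated Het-Met mice.

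The order of the members was set by CPM per kb of exon, since a longer transcript gives more reads. Esrra was highest at 7.70 ± 0.554 CPM per kb (mean ± SD, n = 10 libraries), and no library of the next member reached its lowest library. Esrrg (3.43 ± 0.420) and Pgr (3.11 ± 0.306) came next, and their ranges overlapped. Gper1 followed at 1.52 ± 0.269 CPM per kb, below every library of Pgr and above every library of the members after it. Esrrb (0.398 ± 0.0657) and Esr1 (0.376 ± 0.0927) could not be ordered, with Esrrb above Esr1 in 6 of 10 libraries. Esr2 lay at 0.160 ± 0.0779 CPM per kb, and although the ranges overlapped, Esr1 exceeded Esr2 in 10 of 10 libraries. Greb1 (0.0674 ± 0.0264) and Cyp19a1 (0.0310 ± 0.0177) were lowest. Each of the 9 members had at least 1 read in every library. Per kb, both classical receptors thus lay below the membrane receptor in this tissue, and the readout gene Pgr lay above all 3 receptors. In CPM Esr1 (mean 5.13) lay above Gper1 (mean 3.84). The lengths join all annotated exons of a gene, 13661 bp for Esr1 and 2537 bp for Gper1, so this order depends on them.

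**Figure D1:**
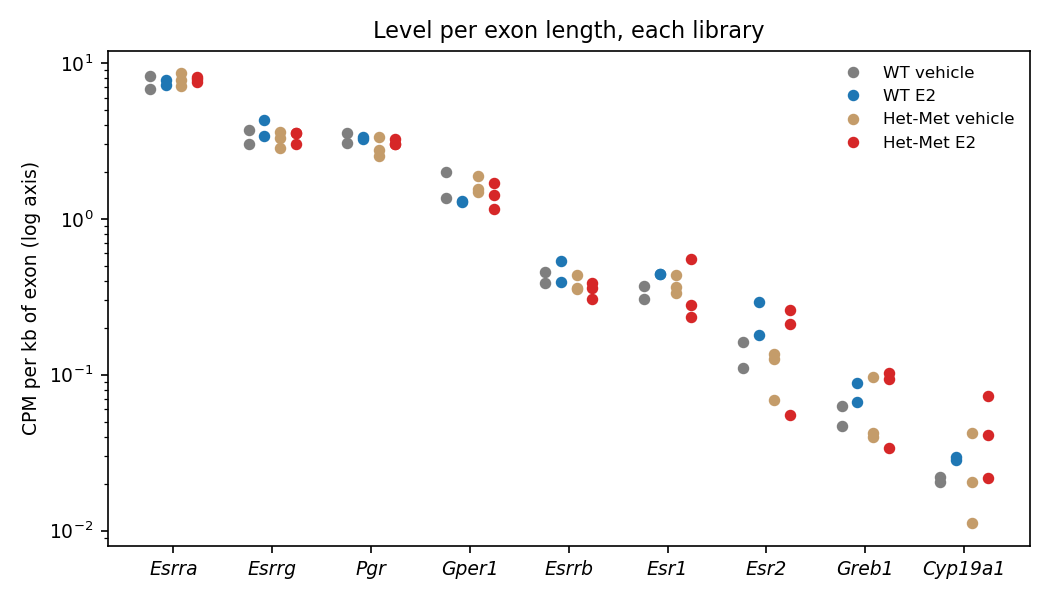
Level of each member as CPM per kb of exon (log axis) in each of the 10 libraries, coloured by group and ordered by the mean over libraries. Esrra lies highest (mean 7.70), Esrrg overlaps Pgr, Esrrb overlaps Esr1, and Esr2, Greb1 and Cyp19a1 form the low end down to a mean of 0.0310.

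The comparison of E2 with vehicle asks whether hormone add-back altered these genes in either genotype. The test was limma, fitted to log2(CPM + 0.5) with 1 mean for each of the 4 groups, and covered the 15081 genes that averaged 0.5 CPM or more. This left 8 of 9 members, with Esr2 (0.539 CPM) and Greb1 (0.646 CPM) just above the limit and Cyp19a1 below it. Esr2 passed only through its E2 groups, with means of 0.794 (WT) and 0.592 CPM (Het-Met), against 0.458 and 0.371 CPM with vehicle. A gene was called where its p-value, adjusted over all these genes, was under 0.05 and its fold change exceeded 1.3. In WT mice 0 of 8 members were called, against 0.0133% of all genes tested, and 0 of 8 had an unadjusted p-value under 0.05, against 4.04% of all. In Het-Met mice the counts were again 0 of 8 called and 0 of 8 at the unadjusted p-value, against 0% and 5.45% of all genes. edgeR and DESeq2 on the recovered reads, with the same limit on low values, also called 0 of 8 members in both genotypes, with 0 of 8 at the unadjusted p-value. The interaction of genotype and E2, which asks whether the E2 effect differed between genotypes, gave 0 of 8 on both counts (0.0729% and 5.42% of all genes). The average E2 effect over genotypes gave 0 of 8 as well (0.00663% and 3.22%).

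**Figure D2:**
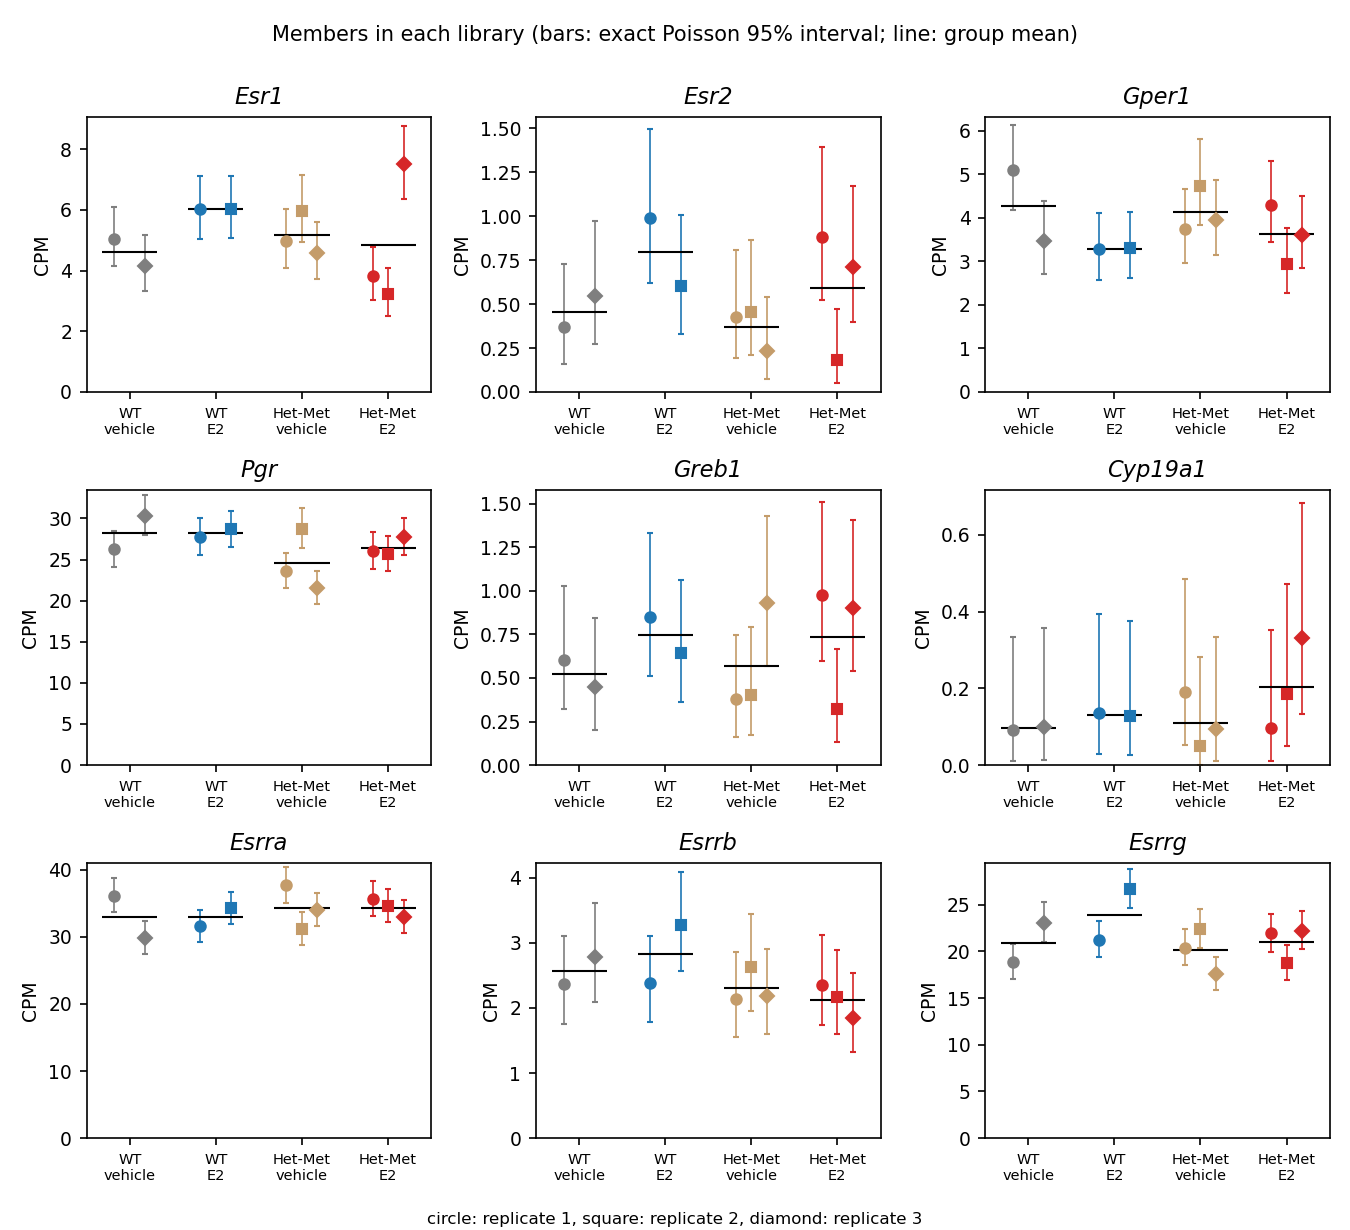
CPM of each member in each library, in 9 panels with axes from 0, where bars are exact Poisson 95% intervals of the reads (counting error alone) and lines are group means. Esr1 in the E2-treated Het-Met mice spans 3.23 to 7.49 CPM, Pgr stays between 21.5 and 30.3 CPM in all groups, and the intervals of Cyp19a1 overlap throughout.

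Esr1, the gene of ERα, varied most between libraries among the 6 members with at least 39 reads in every library (coefficient of variation 24.7%). It was at 5.04 and 4.16 CPM in vehicle-treated and 6.01 and 6.02 CPM in E2-treated WT mice. In Het-Met mice it was at 4.98, 5.95 and 4.59 CPM with vehicle and 3.82, 3.23 and 7.49 CPM with E2. Both E2-treated WT libraries lay above the vehicle libraries, whereas the E2-treated Het-Met group held both the lowest values of the series and the highest. The log2 fold change with E2 was 0.36 in WT mice (standard error 0.27, 95% interval -0.22 to 0.93) and -0.16 in Het-Met mice (standard error 0.22, -0.63 to 0.31). Single E2-treated libraries decided the Het-Met value, which was -0.49 when replicate 3 was left out (unadjusted p = 0.00753, adjusted p = 1.00, limma), -0.0492 when replicate 1 was and 0.0569 when replicate 2 was. The WT value lay between 0.23 and 0.48 with each library left out, and was 0.82 with a choroid plexus covariate (unadjusted p = 0.0370, adjusted p = 1.00, limma). The interaction was -0.52 (standard error 0.35, unadjusted p = 0.157, adjusted p = 1.00, limma). Without replicate 3 of the E2-treated Het-Met mice the interaction was -0.85 (unadjusted p = 0.00271, adjusted p = 0.387, limma). It was -0.30 without replicate 2 of that group, and -1.25 with the covariate (unadjusted p = 0.0291, adjusted p = 1.00, limma). The covariate itself differed between the groups, with a negative interaction for 14 of 14 choroid plexus markers. Its slope came from the spread within groups, where the r of Esr1 with the summed markers was -0.543, against -0.00458 over all libraries. Values with the covariate carry this limit. The residual standard deviation of Esr1 on the log2 scale was 0.36, at the 97.1st percentile of all genes tested, where the median was 0.124.

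Magel2, an imprinted gene known for its role in hypothalamic neurons, and Baiap3, a gene of dense core vesicle traffic, followed Esr1 across libraries. Together with Ptk7, a pseudokinase of the Wnt pathway, they were the 3 genes with the highest Pearson r to Esr1 on the log2 scale (0.951 for Ptk7, 0.935 for Magel2 and 0.926 for Baiap3, n = 10 libraries). These libraries share groups and dissections, so r is a description. In the E2-treated Het-Met group Magel2 was at 3.38, 3.50 and 8.11 CPM. Baiap3 was at 8.96, 9.63 and 24.8 CPM in the same libraries. Replicate 3 was the highest of all 10 libraries for each of them, as it was for Esr1. The sum of the medial amygdala markers had an r of 0.635 with Esr1, that of the meninges markers 0.539, that of the hypothalamus markers 0.342 and that of the pituitary markers -0.559. The part of these tissues in the spread of Esr1 was not tested.

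**Figure D3:**
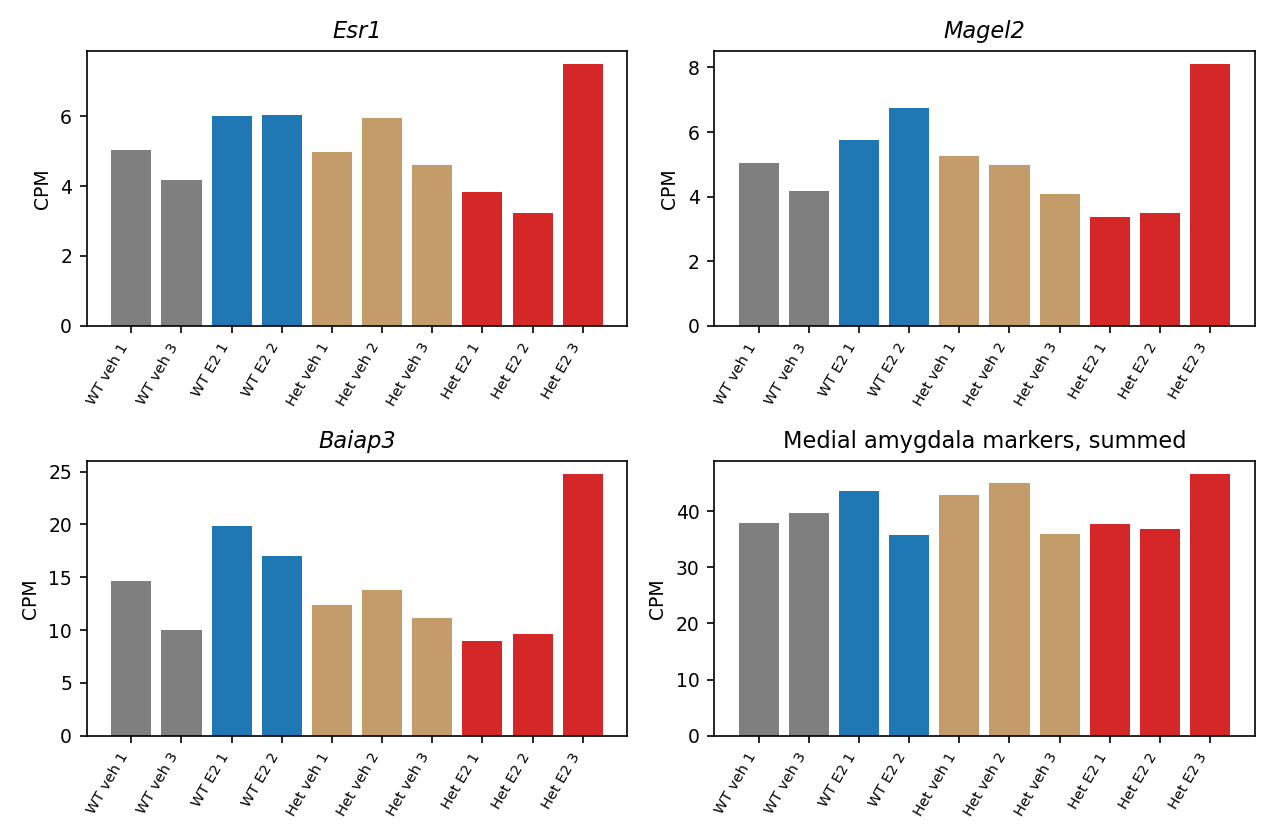
CPM of Esr1, Magel2 and Baiap3 and summed CPM of 7 medial amygdala markers, as bars for each of the 10 libraries coloured by group (veh, vehicle). Replicate 3 of the E2-treated Het-Met mice is highest in all panels, at 7.49, 8.11, 24.8 and 46.7 CPM. Of the 4 markers in the sum that averaged 0.5 CPM or more, Foxp2 alone was highest in that library (6.83 CPM). Lhx6 was highest in vehicle-treated Het-Met replicate 1 (28.4 CPM), Tac1 in replicate 2 of that group (10.5 CPM) and Cartpt in E2-treated WT replicate 1 (4.26 CPM).

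Esr2 was detected with 4 to 22 reads per library. It was at 0.370 and 0.545 CPM in vehicle-treated and 0.987 and 0.602 CPM in E2-treated WT mice. In Het-Met mice the values were 0.427, 0.454 and 0.232 CPM with vehicle and 0.881, 0.184 and 0.711 CPM with E2. The E2 libraries were above the vehicle libraries in WT mice, and in Het-Met mice 2 of 3 were, while the third was the lowest of the series. The log2 fold change was 0.42 in WT mice (standard error 0.32, 95% interval -0.26 to 1.11) and 0.27 in Het-Met mice (standard error 0.26, -0.29 to 0.84). edgeR, which adds less to low counts, gave 0.79 and 0.66, and with a choroid plexus covariate the limma value in WT mice was -0.0100. In WT mice limma gave 0.64 when E2-treated replicate 2 was left out. In Het-Met mice the value was 0.0740 without replicate 1 of the E2-treated libraries and 0.58 without replicate 2 (unadjusted p = 0.0305, limma). Averaged over genotypes it was 0.35 (unadjusted p = 0.114, adjusted p = 0.999, limma), and 0.50 without replicate 2 of the E2-treated Het-Met mice (unadjusted p = 0.0139, adjusted p = 1.00, limma). That replicate had the highest sum of pituitary markers and was the lowest library for Esr1, Esr2, Gper1 and Greb1; what part this library's dissection had was not tested. Counting error alone was wide, since the 18 reads of replicate 1 of that group allow 0.522 to 1.39 CPM (exact Poisson 95% interval). The genes most like Esr2 across libraries were Erlin2 (r = 0.920), a gene of endoplasmic reticulum degradation, and the cilium genes Fam161a (0.894) and Spag6 (0.887).

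Gper1 was the most abundant receptor of estrogen per kb. It was at 5.09 and 3.47 CPM in vehicle-treated and 3.28 and 3.31 CPM in E2-treated WT mice, and at 3.75, 4.74 and 3.94 CPM with vehicle and 4.31, 2.95 and 3.60 CPM with E2 in Het-Met mice. The E2 libraries of WT mice lay below both vehicle libraries, the nearer by less than the gap between the vehicle libraries, and the Het-Met groups overlapped. Its log2 fold change was -0.31 in WT mice (standard error 0.21, 95% interval -0.76 to 0.13) and -0.18 in Het-Met mice (standard error 0.17, -0.54 to 0.18). The average over genotypes was -0.25 (unadjusted p = 0.0865, adjusted p = 0.999, limma). Single libraries moved these values. Without replicate 1 of the vehicle-treated WT mice the change was -0.0657 in WT mice and -0.12 on average, and without replicate 3 it was -0.56 (unadjusted p = 0.0327, adjusted p = 0.543, limma) and -0.37 (unadjusted p = 0.0208, adjusted p = 0.762, limma). The average was -0.31 without replicate 1 of the E2-treated Het-Met mice (unadjusted p = 0.0422, adjusted p = 0.999, limma). In Het-Met mice the change was -0.30 without that library, -0.0584 without replicate 2 of the same group and -0.0894 without vehicle-treated replicate 2. The 6 endothelial markers, led by Flt1, summed to between 173.0 and 223.0 CPM and had an r of 0.799 with Gper1, and their part in its spread was not tested. Chpf2 (a chondroitin synthesis gene, r = 0.936), Plekhg2 (0.919) and Vwa1 (0.912) were most like it.

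Among all 8 members tested, the libraries of the E2 and vehicle groups did not overlap for 4 in WT mice, where this held for 31.8% of all genes tested. These were Esr1, Esr2 and Greb1, higher with E2, and Gper1, lower. Esr2 passed the limit on low values only through its E2 groups, so nothing is concluded from its place in this count. In Het-Met mice the lack of overlap held for 0 of 8 members, against 10.3% of all genes.

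Pgr, the progesterone receptor gene, gave no E2 difference past the test in either genotype. It was at 26.2 and 30.3 CPM in vehicle-treated and 27.7 and 28.7 CPM in E2-treated WT mice. Het-Met mice had 23.6, 28.8 and 21.5 CPM with vehicle and 26.0, 25.6 and 27.7 CPM with E2. The groups overlapped in both genotypes, and both E2 groups lay within the range of the vehicle libraries. In WT mice the log2 fold change was -0.00 (standard error 0.13), and its 95% interval allowed a fold between 0.830 and 1.20. In Het-Met mice it was 0.11 (standard error 0.10), with a fold between 0.927 and 1.26 allowed. Leaving out vehicle-treated Het-Met replicate 2 gave 0.22 (unadjusted p = 0.0367, adjusted p = 0.774, limma), and leaving out replicate 3 of that group gave 0.0191. Zmat3, a target of p53 (r = 0.967), Tenm3, a teneurin of synaptic wiring (0.950), and the predicted gene Gm2027 (0.946) were most like Pgr across libraries.

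Greb1, a cofactor and target of ERα, was detected with 7 to 20 reads per library. The values were 0.601 and 0.446 CPM in vehicle-treated and 0.852 and 0.645 CPM in E2-treated WT mice. They were 0.380, 0.404 and 0.928 CPM in vehicle-treated and 0.979, 0.323 and 0.901 CPM in E2-treated Het-Met mice, where the groups overlapped. The log2 fold change was 0.29 (standard error 0.32, 95% interval -0.39 to 0.96) in WT mice and 0.20 (standard error 0.26, -0.36 to 0.75) in Het-Met mice. In WT mice it was 0.51 with edgeR, 0.51 with DESeq2, 0.57 with a replicate block and 0.16 with a choroid plexus covariate, and it lay between 0.17 and 0.41 with each library left out. Among E2-treated Het-Met libraries, leaving out replicate 1 gave 0.0418 and leaving out replicate 2 gave 0.46. In the annotation 736 bp (7.68%) of the exons of Greb1 lie opposite exons of Gm48140, and reads of the pair could be told apart only if strand was used in counting. The genes most like it were Kctd9 (r = 0.912), Abca7 (a lipid transporter, 0.902) and Inpp5e (a phosphatase of cilia, 0.879).

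Cyp19a1, which encodes the aromatase that converts androgens into estrogens, was near the limit of detection. Its reads numbered 2 and 2 in vehicle-treated and 3 and 3 in E2-treated WT libraries, and 4, 1 and 2 in vehicle-treated and 2, 4 and 7 in E2-treated Het-Met libraries, 30 in all. In 7 of 10 libraries it was at or under the floor of 3 reads, and the highest value, 0.332 CPM, had an exact Poisson 95% interval of 0.133 to 0.684 CPM. The means were 0.176 CPM over the 5 E2 libraries and 0.105 CPM over the 5 vehicle libraries. The mean difference within genotypes was 0.0649 CPM (exact stratified permutation test, two-sided, 120 permutations, p = 0.133). It lay between 0.0331 CPM (without replicate 3 of the E2-treated Het-Met mice) and 0.0916 CPM (without replicate 1 of that group, p = 0.05, exact) with each library left out. Genotypes differed by 0.0441 CPM within treatments (exact stratified permutation test, two-sided, 100 permutations, p = 0.390), and by 0.0123 CPM without replicate 3 and 0.0708 CPM without replicate 1 of the same group. No difference in aromatase RNA was detectable at this depth.

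The estrogen-related receptors, which respond to coactivators rather than to estradiol, gave 0 calls with E2 in either genotype. Esrra, the most abundant member, ranged from 29.8 to 37.7 CPM over the 10 libraries, with a coefficient of variation of 7.20%. Its log2 fold change with E2 was 0.00 (standard error 0.11) in WT and 0.01 (standard error 0.09) in Het-Met mice, and the intervals allowed folds of 0.847 to 1.18 and 0.877 to 1.15. Esrrg ranged from 17.6 to 26.6 CPM, with E2 changes of 0.19 (standard error 0.15) in WT and 0.06 (standard error 0.12) in Het-Met mice. The WT value was 0.0261 when replicate 2 of the E2 group was left out, 0.35 when replicate 1 was left out, and 0.0880 with the choroid plexus covariate. Esrrb was at 2.36 and 2.78 CPM with vehicle and 2.38 and 3.27 CPM with E2 in WT mice, and at 2.13, 2.62 and 2.18 CPM with vehicle and 2.35, 2.17 and 1.85 CPM with E2 in Het-Met mice. These libraries overlapped between treatments in both genotypes. The E2 changes of Esrrb were 0.11 (standard error 0.20, 95% interval -0.33 to 0.54) in WT and -0.10 (standard error 0.17, -0.45 to 0.25) in Het-Met mice. With each library left out they ran from -0.0886 to 0.30 and from -0.16 to -0.0239. Of all 28 pairs of members tested, Pgr and Esrrg had the highest r across libraries (0.758), and Pgr and Esrra the lowest (-0.651). Esrrg had an r of 0.745 with the summed interneuron markers, and Slc32a1, the vesicular GABA transporter gene (r = 0.922), was among the 3 genes most like it, with Slc4a10 (a bicarbonate transporter, 0.939) and Zfp516 (0.914). Esrra was most like Clk2 (a splicing kinase, 0.934), Rrnad1 (0.928) and Wdr43 (a ribosome biogenesis gene, 0.926), and Esrrb was most like Aff3 (0.961), the delta opioid receptor gene Oprd1 (0.938) and the cation channel gene Trpc1 (0.930). The exons of Esrra share 73 bp with Trmt112 on the other strand and 91 bp with Mir6990 on the same strand.

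**Figure D4:**
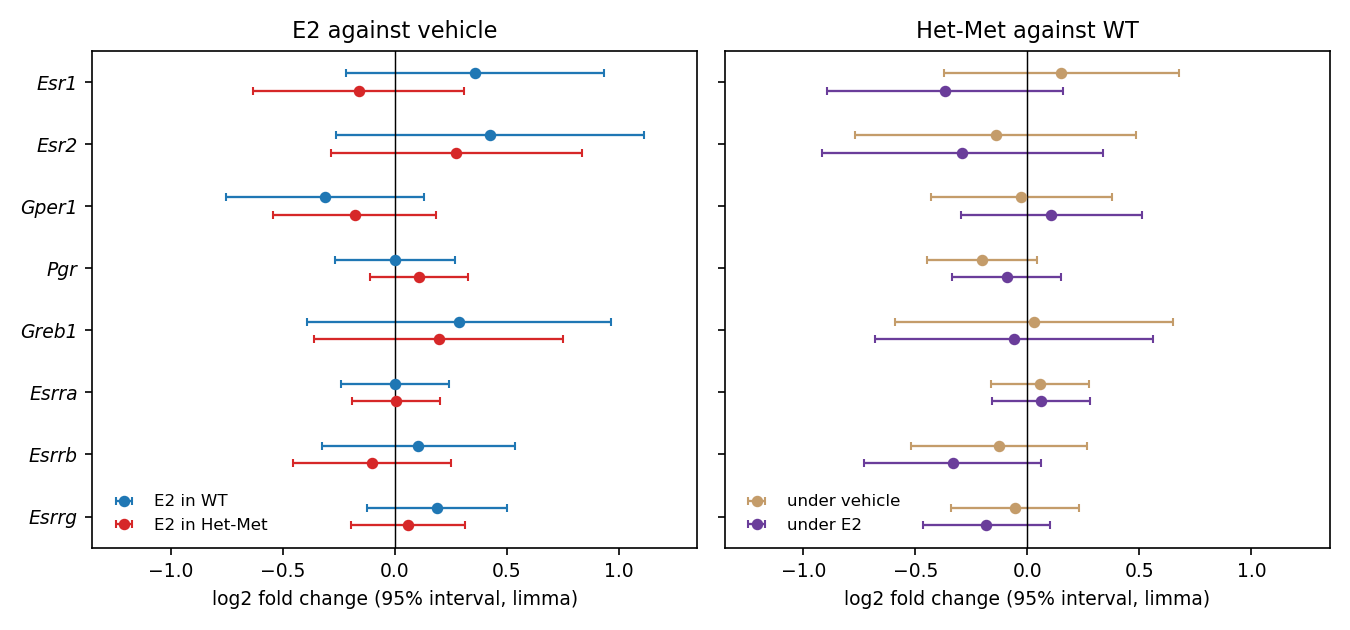
Log2 fold changes of the 8 members tested, with 95% intervals from limma, for E2 against vehicle in each genotype (left) and for Het-Met against WT under each treatment (right). Every interval includes 0, and those of Esr1, Esr2 and Greb1 are the widest, with Esr2 in WT mice reaching from -0.26 to 1.11.

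The comparison of genotypes asks whether the Met allele altered these genes with or without hormone. Under vehicle 0 of 8 members were called by limma, against 0.00663% of all genes, and 0 of 8 had an unadjusted p-value under 0.05, against 10.7% of all. Under E2 the counts were 0 and 0 of 8, against 0.0265% and 11.7%. Averaged over treatments they were 0 and 0 of 8, against 0.0265% and 16.6%. With the same limit on low values, edgeR and DESeq2 gave 0 and 0 of 8 in each of these comparisons too. Without the limit edgeR gave Pgr an unadjusted p-value of 0.0410 (log2 difference -0.17, adjusted p = 0.332) over both treatments. Esrrb had means of 2.57 ± 0.294 (vehicle, SD, n = 2) and 2.82 ± 0.628 CPM (E2, SD, n = 2) in WT mice and 2.31 ± 0.270 and 2.12 ± 0.253 CPM (SD, n = 3 each) in Het-Met mice. Averaged over treatments the log2 difference was -0.23 (standard error 0.13, adjusted p = 0.394, limma). For Esrrb it was -0.33 when replicate 1 of the E2-treated WT mice was left out (unadjusted p = 0.0445, adjusted p = 0.432, limma) and -0.13 when replicate 2 was. For Pgr it was -0.15 (standard error 0.08, adjusted p = 0.379, limma). Leaving out a library moved the value of Pgr to between -0.20 (vehicle-treated Het-Met replicate 2, unadjusted p = 0.0132, adjusted p = 0.157, limma) and -0.0956 (vehicle-treated WT replicate 3), and it was -0.20 without vehicle-treated WT replicate 1 too (unadjusted p = 0.0442, limma). Under E2 the libraries of the genotypes did not overlap for Pgr and Esrrb, both lower in Het-Met mice, 2 of 8 members where 35.8% of all genes did not overlap. Under vehicle the libraries overlapped for all 8 members tested, while 24.7% of all genes did not overlap. For Esr1 under E2 the difference was -0.37 (standard error 0.25, adjusted p = 0.573, limma), and -0.70 without replicate 3 of the E2-treated Het-Met mice (unadjusted p = 0.0012, adjusted p = 0.473, limma). It was -0.15 without replicate 2 of that group (adjusted p = 0.856, limma) and -0.74 with the choroid plexus covariate (unadjusted p = 0.0296, adjusted p = 0.994, limma).

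The coregulators of the estrogen receptors were well expressed, with a median of 70.6 CPM over 27 genes, of which 24 were tested. Averaged over treatments, 9 of 24 (37.5%) were lower in Het-Met mice and 1 of 24 higher at an unadjusted p-value under 0.05, against 7.27% and 9.33% of all genes, and 0 of 24 passed the adjusted test of limma. In the same comparison 3 of 7 thalamic markers (Tnnt1, Tcf7l2 and Calb2) and 2 of 6 microglial markers (C1qa and C1qb) were higher at the unadjusted p-value, as was 1 of 8 meninges markers (Myoc, 0.65, adjusted p = 0.00340, limma), and 1 of 10 markers of hippocampal neurons (Zbtb20) was lower, against 9.33% and 7.27% of all genes, and their part in the coregulator values was not tested. The median log2 difference of the coregulators was -0.10, against 0.02 over all genes. Nrip1, a corepressor of ligand-bound receptors, was at 22.9 and 25.1 CPM in vehicle-treated and 26.6 and 27.9 CPM in E2-treated WT mice. In Het-Met mice it was at 13.7, 24.6 and 16.7 CPM with vehicle and 19.9, 20.6 and 16.2 CPM with E2. Under E2 each Het-Met library lay below each WT library, and under vehicle 1 of 3 lay within the range of the WT libraries. Its log2 difference over treatments was -0.47 (standard error 0.13, adjusted p = 0.126, limma). The steroid receptor coactivators Ncoa1 (-0.17) and Ncoa2 (-0.18), the corepressor Ncor1 (-0.17) and the transcription factor Sp1 (-0.18), which tethers estrogen receptors to DNA, had the next smallest p-values, with adjusted p-values between 0.147 and 0.169 (limma). Under vehicle alone 6 of 24 were lower and 0 higher, against 4.83% and 5.85% of all genes, and under E2 alone 4 of 24 were lower and 0 higher, against 5.36% and 6.29%. In these comparisons 14 of 14 choroid plexus markers were higher and lower, respectively, and their part was not tested. The 2 comparisons share no library, and 14 of 24 coregulators (58.3%) had a lower mean in both, against 3768 of all 15081 genes. Long transcripts differed in the same direction in these data. The median exon length was 7769 bp in the list and 4435 bp over all genes, and of the 2865 genes at least as long as the median of the list 22.1% were lower at the unadjusted p-value. With the trend on exon length removed, 7 of 24 coregulators were lower, against 6.47% of all genes. With E2 against vehicle, 1 of 24 was lower in WT mice (Pelp1, a coactivator scaffold, -0.20) and 1 of 24 in Het-Met mice (Fkbp5, a cochaperone, -0.26), against 1.66% and 2.63% of all genes. Over both genotypes 0 of 24 were higher or lower with E2 (1.73% and 1.49% of all genes). For the interaction 0 of 24 had a positive and 1 of 24 a negative value at the unadjusted p-value, again Fkbp5 (-0.31), against 2.8% and 2.62%.

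**Figure D5:**
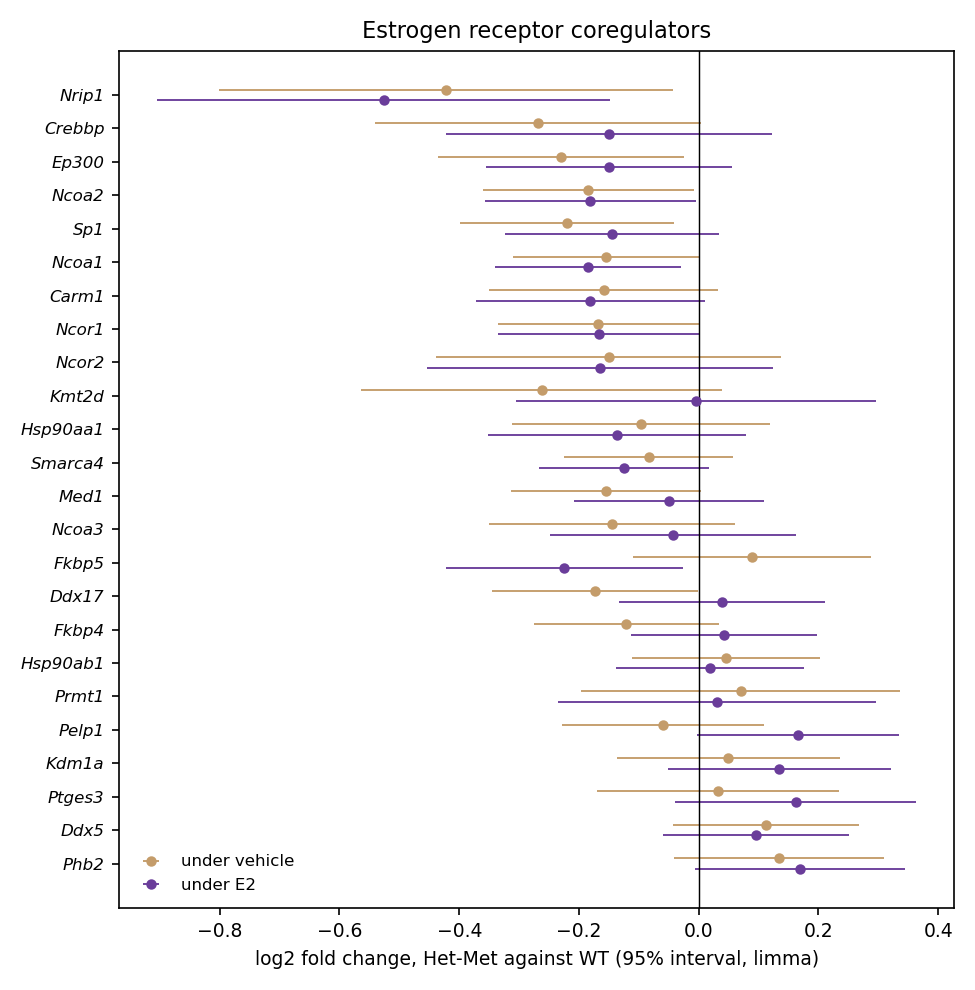
Log2 difference of Het-Met against WT, with 95% intervals from limma, for the 24 coregulators tested, under vehicle and under E2, ordered by the average of both. Nrip1 is lowest under both treatments (-0.42 and -0.53), and 14 of 24 genes lie below 0 in both.

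Other known targets of the estrogen receptors gave no called gene in any comparison (24 of 30 tested, limma). At the unadjusted p-value, 1 of 24 was higher with E2 in WT mice, Ctsd, the cathepsin D gene (0.16), against 2.37% of all genes. In Het-Met mice Ret, a receptor tyrosine kinase gene, was higher (0.31) and Igfbp4, a binding protein of insulin-like growth factors, lower (-0.18), against 2.82% and 2.63% of all genes. The interaction was negative at the unadjusted p-value for 1 of 24, again Ctsd (-0.26, adjusted p = 0.689, limma), and positive for 0 of 24, against 2.62% and 2.8%. At that p-value 14 of 14 choroid plexus markers were higher with E2 in WT mice. A negative interaction held for 14 of 14 as well, and their part was not tested. The breast cancer readout Tff1 was listed at 0 reads in all 10 libraries, which allows up to 0.129 to 0.151 CPM. Prl, a pituitary hormone gene and a classical estrogen target, had an average E2 change of 2.46 (adjusted p = 0.999, limma). Over both genotypes Prl and Ret (0.26) were the 2 of 24 higher with E2 at the unadjusted p-value and 0 of 24 were lower, against 1.73% and 1.49% of all genes. Prl had values from 0.648 to 159.9 CPM that overlapped between treatments in both genotypes. Gh, the growth hormone gene and another pituitary marker, had values from 0.0948 to 41.4 CPM. The ratio of Prl to Gh was 3.39 or more in the E2 libraries other than replicate 3 of the Het-Met mice. It was 1.84 or less in each of the 5 vehicle libraries, a comparison chosen after the values were seen and given with no test. In replicate 3 of the E2-treated Het-Met mice Gh was at 0.0948 CPM, under the floor of 3 reads, so the ratio of that library is not usable. The part of pituitary RNA in the values of Prl was not tested. Between genotypes 3 of 24 were lower and 1 of 24 higher over both treatments, against 7.27% and 9.33% of all genes. The lower ones were the immediate-early gene Egr1 (-0.52, adjusted p = 0.126, limma), Bdnf itself, whose allele differs (-0.24, adjusted p = 0.167), and the cyclin gene Ccnd1 (-0.14, adjusted p = 0.262). The signalling ligand gene Wnt4 was higher (0.21, adjusted p = 0.294). Under E2 alone 3 of 24 were lower in Het-Met mice at the unadjusted p-value and 0 higher, against 5.36% and 6.29% of all genes. These were the immediate-early gene Fos (-0.99, adjusted p = 0.368, limma), Egr1 (-0.51) and Ccnd1 (-0.19). Under vehicle alone 2 of 24 were lower, Egr1 (-0.53) and Bdnf (-0.29), and 1 of 24 higher, Ctsd (0.19, adjusted p = 0.378, limma). The shares of all genes were 4.83% and 5.85%. In these comparisons 14 of 14 choroid plexus markers were lower and higher, respectively, and their part was not tested.

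Genes of steroid synthesis and estrogen metabolism were mostly scarce, with a median of 2.48 CPM over the 24 genes found, and 15 were tested. In WT mice 1 of 15 was higher with E2 at the unadjusted p-value, against 2.37% of all genes. This was Sult1a1, a phenol sulfotransferase, at 8.10 and 6.74 CPM with vehicle and 10.5 and 11.2 CPM with E2. It was at 9.91, 9.33 and 10.5 CPM with vehicle and 10.4, 9.87 and 9.77 CPM with E2 in Het-Met mice. The E2 libraries lay above the vehicle libraries in WT mice alone, and the groups overlapped in Het-Met mice. The log2 fold change of Sult1a1 was 0.52 in WT mice (standard error 0.13, adjusted p = 0.401, limma), and the interaction was -0.51 (adjusted p = 0.581). The interaction of Tspo, a mitochondrial translocator protein gene, was -0.63 (adjusted p = 0.845, limma). These were the 2 of 15 with a negative interaction at the unadjusted p-value and 0 of 15 had a positive one, against 2.62% and 2.8% of all genes. The choroid plexus markers had a negative interaction in 14 of 14, and their part was not tested. Over both genotypes 1 of 15 was higher with E2 at the unadjusted p-value, again Sult1a1 (0.27, adjusted p = 0.999, limma), and 1 of 15 lower, the 5α-reductase gene Srd5a1 (-0.28, adjusted p = 0.999), against 1.73% and 1.49% of all genes. Between genotypes 3 of 15 were higher in Het-Met mice over both treatments and 0 of 15 lower, against 9.33% and 7.27% of all genes. These were Hsd17b10 (0.32), a mitochondrial dehydrogenase, Srd5a1 (0.32) and Hsd17b11 (0.16), with adjusted p-values between 0.127 and 0.217 (limma).

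Partners of estrogen signalling at the membrane gave 0 calls among 19 genes tested in each comparison (limma). With E2, 1 of 19 was lower in WT mice at the unadjusted p-value, the caveolin gene Cav2, at 32.7 and 34.8 CPM with vehicle and 25.9 and 27.8 CPM with E2 (log2 fold change -0.33, adjusted p = 0.897, limma), against 1.66% of all genes. In Het-Met mice Cav2 was at 33.7, 30.8 and 27.9 CPM with vehicle and 30.7, 31.9 and 36.7 CPM with E2, and its interaction was 0.43 (adjusted p = 0.566, limma). The interaction had an unadjusted p-value under 0.05 for 2 of 19 genes with a positive value and 1 of 19 with a negative value, against 2.8% and 2.62% of all genes. The others were Zdhhc7, a palmitoyltransferase that anchors ERα (-0.28, adjusted p = 0.817, limma), and Cav1, the partner of Cav2 (0.33, adjusted p = 0.840). With E2 in WT mice 6 of 6 endothelial markers had a negative change, 1 of 6 (Slco1a4, -0.35) at the unadjusted p-value. Slco1a4 also had a positive interaction at that p-value (0.34). The 14 choroid plexus markers were all higher with E2 in WT mice and all had a negative interaction. The part of these tissues was not tested. In Het-Met mice 2 of 19 were higher with E2 (the growth factor receptor gene Egfr, 0.27, and the kinase subunit gene Pik3r1, 0.20) and 1 of 19 was lower (Zdhhc7, -0.18), against 2.82% and 2.63% of all genes. In that comparison 2 of 7 thalamic markers were higher at the unadjusted p-value. Lower were 3 of 8 meninges and 11 of 14 choroid plexus markers, and the part of these tissues was not tested. Over both genotypes 1 of 19 was higher, again Egfr (0.23), and 0 of 19 lower, against 1.73% and 1.49%. Between genotypes 4 of 19 were lower and 1 of 19 higher over both treatments, against 7.27% and 9.33% of all genes. The smallest p-values were those of Strn, the scaffold striatin that binds ERα (-0.30, adjusted p = 0.126, limma), and the kinase gene Mapk3 (0.21, adjusted p = 0.126), followed by Igf1r (-0.14), Gnaq (-0.12) and Grm5 (-0.12).

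Among other steroid receptors, the mineralocorticoid receptor gene Nr3c2 was lower in Het-Met mice over both treatments at the unadjusted p-value (-0.23, adjusted p = 0.258, limma). It did not pass the adjusted test in any comparison, and with E2 it did not pass the unadjusted p-value in either genotype.

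Coactivators and metabolic targets of the estrogen-related receptors were abundant (median 92.0 CPM over 28 genes, 27 tested), and 0 were called in any comparison (limma). With E2, 0 of 27 had an unadjusted p-value under 0.05 in WT mice and 1 of 27 in Het-Met mice, against 4.04% and 5.45% of all genes. The latter was Cox8b, a muscle form of a respiratory chain subunit that averaged between 0.573 and 1.17 CPM per group (-0.58). Over both genotypes 0 of 27 were higher and 1 of 27 lower, the respiratory chain gene Uqcrc1 (-0.12), against 1.73% and 1.49%. Between genotypes 4 of 27 were higher and 3 of 27 lower over both treatments, against 9.33% and 7.27% of all genes. Ldhb (0.18), a lactate dehydrogenase gene, and Cycs (0.34), the cytochrome c gene, were higher in Het-Met mice, with adjusted p-values of 0.127 and 0.146 (limma). The coactivator genes Ppargc1b (-0.41) and Ppargc1a (-0.18) were lower, with adjusted p-values of 0.171 and 0.274, and so was the potassium channel gene Kcnc1 (-0.14, adjusted p = 0.194).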

How the data were processed

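The authors trimmed and filtered the 75-bp single-end reads of stranded libraries, used TopHat2 for alignment to mm10, and deposited CPM of reads counted per gene for each library. The counting tool's version and strand setting are not given in the sources used here. In each library 100% of the CPM values were whole multiples (tolerance 0.01 reads) of the smallest value, which gave back the reads, and 0 columns were left unused. Replicates differed by more than sampling noise (chi-square per degree of freedom 3.29 to 12.1). Poisson intervals and floors cover counting error alone.

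Values were log2(CPM + 0.5), a scale that understates changes of low genes. limma 3.58.1 in R 4.3.3 fitted 4 group means with a trend on intensity (8.90 prior and 6 residual degrees of freedom), two-sided, with Benjamini-Hochberg adjustment over 15081 genes. edgeR 4.0.16 called 2 (E2 in WT), 0 (E2 in Het-Met), 1 and 14 (genotype under vehicle and E2) genes on recovered reads. DESeq2 1.42.0 called 14, 6, 34 and 29 genes in the same order. Alternatives also covered pseudocounts of 0.1 and 1, filters, scaling, a replicate block, a choroid plexus covariate, the libraries compared alone and each library left out. The coregulator count, its length trend and the alternatives for called markers were added after seeing the data. With 2 against 2 libraries an exact test could not reach 0.05, so the groups shared a spread. The labels call the libraries biological replicates.

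Positions and lengths came from GENCODE vM21 (GRCm38, equal to mm10), and 23334 of 24421 symbols matched directly and 668 by an older symbol. Sequences came from RefSeq. Members, lists and tests were chosen with earlier results of these data known. Genes named were all members, of each pathway list at most 5 with the smallest unadjusted p-values under 0.05 per comparison, called genes, the 3 most alike by Pearson r, and the most abundant marker. Pou1f1, Tbx19, Cga, Fshb, Tff1, Prl, Gh, Tnnt1, Tcf7l2, C1qa, C1qb, Zbtb20 and Slco1a4 were chosen after their values were seen. The test was checked on simulated data. One item of the lists is not reported here.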

Additional observations from a re-analysis of the deposited data

Results flagged for a closer look

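The summed meninges markers, led by Igf2, separated the treatments in opposite directions in the genotypes. E2-treated WT libraries held 112 CPM more on average than vehicle-treated ones, at 437.3 and 427.0 against 330.6 and 308.7 CPM. In Het-Met mice the difference between E2 and vehicle was -69.6 CPM, at 381.5, 318.5 and 370.7 against 453.4, 437.9 and 388.1 CPM. The libraries of the treatments did not overlap in either genotype. All marker lists were scanned, and this sum is given because it met that rule with opposite directions in the genotypes. The separation was thus the ground for choosing it, and no conclusion is drawn from it. The difference between the genotypes was not tested for the sum. For Igf2 alone the interaction on the log2 scale was -1.23 (adjusted p = 0.0454, limma). It passed in 7 of 19 alternatives, among them 1 of the 10 fits with a library left out, where it lay between -1.43 and -1.10, and it was -0.69 with the choroid plexus covariate (adjusted p = 1.00, limma). The separation of the sums was lost without Igf2. This gene was at 131.4 and 117.0 CPM with vehicle and 238.9 and 199.9 CPM with E2 in WT mice. In Het-Met mice it was at 191.3, 173.1 and 178.6 CPM with vehicle and 179.6, 123.3 and 112.7 CPM with E2, where the treatments overlapped. Without Igf2, a sum added after seeing the data, the other markers came to 199.2 and 191.7 CPM with vehicle and 198.4 and 227.1 CPM with E2 in WT mice. In Het-Met mice they came to 262.1, 264.8 and 209.5 CPM with vehicle and 201.8, 195.2 and 258.0 CPM with E2, and the treatments overlapped in both genotypes. Myoc, another meninges marker, was lower with E2 in both genotypes, at -0.61 in WT mice (adjusted p = 0.120, limma) and -0.40 in Het-Met mice (adjusted p = 0.597). The median over the 8 markers was 0.09 in WT and -0.16 in Het-Met mice. The summed choroid plexus markers differed in the same directions, with means of 992.3 (vehicle) and 3216 CPM (E2) in WT mice and of 3002 and 1205 CPM in Het-Met mice. The part of choroid plexus or meningeal RNA in the values of the estrogen receptors was not tested.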

How the results depend on the processing

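Over the 7 comparisons the alternatives gave 137 counts of members called, and each was 0. At the unadjusted p-value 19 of these 137 counts were 1, from leaving out a library or from the choroid plexus covariate, and the others were 0. Of 427 alternative fold changes for 22 results, 410 kept their sign. Many of these could not change sign, so the count is no measure of stability. An E2 change within 1 genotype stays the same when a library of the other genotype is left out. The filters and the fits of the compared libraries alone also leave a fold change as it was. Esr2 and Greb1 gave no value with the 2 CPM limit, nor did Esr2 without replicate 1 of the E2-treated WT mice, since their means were then under the limit. With the choroid plexus covariate the E2 change in WT mice was -0.0100 for Esr2 and -0.0159 for Esrrb, and in Het-Met mice -0.0203 for Esrra. The same covariate gave Esr1 an E2 change of 0.82 in WT mice (unadjusted p = 0.0370, adjusted p = 1.00, limma) and an interaction of -1.25 (unadjusted p = 0.0291, adjusted p = 1.00). As the covariate itself differed between the groups, all values with it rest on its slope within groups. Esrra in WT mice, at 0.00 in the model of the report, was -0.0260 with a replicate block, -0.00102 with edgeR and -0.00212 with DESeq2, and -0.000136 with edgeR in Het-Met mice. Pgr in WT mice was 0.00112 with median-of-ratios scaling. The causes were not tested. Leaving out each library in turn gave E2 changes in WT mice of -0.0886 to 0.30 for Esrrb, -0.13 to 0.14 for Esrra and -0.10 to 0.10 for Pgr. In Het-Met mice they were -0.49 to 0.0569 for Esr1, -0.0317 to 0.14 for Esrrg and -0.0597 to 0.0758 for Esrra. Same-numbered libraries had deviations correlated between -0.17 and 0.08, so the numbers were not taken to pair the libraries, and the replicate block left 0 members called. It changed the number of genes called among all genes in WT mice from 2 to 10. Among all genes DESeq2 called 14 (E2 in WT), 6 (E2 in Het-Met), 34 and 29 (genotype under vehicle and E2), 37 (interaction) and 88 (genotype over both treatments), against 2, 0, 1, 4, 11 and 4 in the model of the report. With each library left out, the calls with E2 in WT mice numbered 0 to 16 (16 without replicate 1 of the E2-treated Het-Met mice). Those between genotypes over both treatments numbered 1 (without E2-treated WT replicate 1) to 86 (without vehicle-treated Het-Met replicate 2). Under E2 the calls between genotypes numbered 52 with only those libraries fitted, 14 with edgeR, 10 with median-of-ratios scaling, 8 with a pseudocount of 1, 2 with the replicate block, 0 with no filter or the choroid plexus covariate, and 0 to 45 with each library left out (0 without replicate 1 or 2 of the E2-treated WT mice or replicate 2 of the E2-treated Het-Met mice). The interaction gave 0 calls among all genes with no filter, with the choroid plexus covariate and in 6 of 10 fits with a library left out, and up to 71 in the others. The coregulators lower in Het-Met mice numbered 6 to 13 with each library left out and 7 with the replicate block. Depth limits Esr2, Greb1 and Cyp19a1, with at most 22, 20 and 7 reads per library.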

Other observations

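Markers of cell types and regions gave 3 called genes. Myoc, a gene of meningeal and connective tissue cells, was higher in Het-Met than in WT mice over both treatments (log2 difference 0.65, adjusted p = 0.00340, limma) and under E2 (0.75, adjusted p = 0.0356). The first call was made in 18 of 19 alternatives, the exception being without replicate 1 of the E2-treated WT mice (0.58, adjusted p = 0.0542, limma), and the second in 12 of 20. Fibcd1, a gene of hippocampal pyramidal neurons, had an interaction of -0.69 (adjusted p = 0.0333, limma), and Igf2, above, was the third. The call of Fibcd1 was made in 8 of 19 alternatives, among them 2 of the 10 fits with a library left out, and it was lost with no filter (adjusted p = 0.140, limma), a replicate block (adjusted p = 0.0587) and the choroid plexus covariate (adjusted p = 1.00), with values between -0.74 and -0.64 throughout. Astrocyte markers, led by Aldoc, summed to between 2534 and 2837 CPM and microglial markers, led by Csf1r, to between 325.3 and 378.9 CPM. Oligodendrocyte markers, led by Mbp, summed to between 3843 and 4918 CPM and had an r of -0.705 with Esr2 and -0.728 with Esrrg across the 10 libraries. Interneuron markers, led by Gad1, summed to between 826.7 and 1035 CPM.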
